A study of Mus musculus with 12 samples.

Results

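The 10 genes described here encode the NF-kB transcription factor and the IkB family of proteins that bind it. The 5 subunits are Nfkb1, Nfkb2, Rel, Rela and Relb, and the 5 IkB family members are Nfkbia, Nfkbib, Nfkbie, Nfkbiz and Bcl3. They were taken by gene symbol from a table of 37310 genes, and all 10 passed the filter on low counts and are among the 12917 genes tested. Levels are given as CPM, read counts brought to a common library total with TMM scaling factors.

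The libraries were bulk RNA-seq of neutrophils from the bone marrow of C57BL/6 mice, in 4 groups of 3. Control and Runx1KO (Runx1 knockout) cells were kept for 2 h with vehicle or with lipopolysaccharide (LPS), a bacterial cell wall component, at 100 ng/mL. The cells of all groups were sorted as CD11b+, Ly6G+, Siglec F- and F4/80-, where F4/80 is the protein made from Adgre1. The transcription factor Runx1 regulates many blood cell genes, and the series asks how it bears on inflammatory gene output downstream of Toll-like receptors. The design text describes the Control material as LKS- cells pooled from a Runx1f/f and a Runx1f/- mouse, the latter with a germline mutation of 1 allele, whereas the labels of the Control libraries describe sorted neutrophils. Which of these holds cannot be told from the labels, and it touches every comparison of genotypes. LKS- cells are progenitors, and the 5 progenitor markers summed to 32.9 to 55.7 CPM in Control libraries and 25.3 to 94.9 CPM in Runx1KO libraries. Beside these, the 12 neutrophil markers summed to 166253 to 194934 CPM in Control libraries and 122846 to 172338 CPM in Runx1KO libraries. The sources used here do not give the Cre driver of the knockout, the ages of the mice or the deleted part of Runx1.

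In resting cells, dimers of the Rel family are held in the cytoplasm by IkB proteins, whose ankyrin repeats cover the nuclear import signals of the dimer. Signals from Toll-like receptors activate IkB kinases, the phosphorylated IkB is ubiquitinated and degraded, and the freed dimers enter the nucleus and bind kB sites in the DNA. Among the genes they switch on are Nfkbia and other members of their own family, so that these transcripts are widely read as feedback targets in macrophages and neutrophils.

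Total counts ranged from 19023610 to 26225169 per library, and mitochondrial transcripts took 0.285 to 0.537% of them. Runx1 was counted at 26.1 to 56.2 CPM in the Control libraries and at 43.7 to 75.4 CPM in the Runx1KO libraries. Since reads from outside the deleted part are counted too, this checks no genotype label. The 12 neutrophil markers summed to 122846 to 194934 CPM over the 12 libraries. Libraries carry the numbers 1, 2 and 3 in each group. In all 4 groups the library numbered 2 held Y-linked Ddx3y (109 to 192.5 CPM) and 0 CPM of Xist, and those numbered 1 and 3 held Xist (42.4 to 65.7 CPM) and at most 0.0501 CPM of Ddx3y. Library 2 of each group thus came from other mice than libraries 1 and 3. No label says whether libraries 1 and 3 came from separate mice, so the spread between those may be technical, and the tests measure only the spread between these libraries. Runx1KO LPS library 3 stood apart by its TMM factor of 0.699 and by its monocyte and macrophage markers, which are given below beside the results they touch.

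The stretches of DNA upstream of the members are shown first, because kB sites in them are a known way for members to act on each other's transcription. Promoter windows of 250 bases before to 50 after a start site were held for 7 of the 10 members in RefSeq (mouse build GRCm38.p6). They were searched on both strands for the 10-base NF-kB consensus, the kB decamer. Of these 7 members 5 held a match: Nfkb2, Rel, Nfkbia, Nfkbie and Bcl3. Counted by gene, 5.14% of 27025 genes held a match in any of their windows. Counted by window, 7 of the 9 windows of the members held a match. A match stood in 4.51% of all 32851 windows of that length in the table, and in 3.9% of the 250 bases before the start. The 250 bases before the start of the 4 members with an upstream match, and of Rela for comparison, read as follows, 5′ to 3′ on the strand of the gene, with bases under a match on either strand in capitals.
Nfkb2: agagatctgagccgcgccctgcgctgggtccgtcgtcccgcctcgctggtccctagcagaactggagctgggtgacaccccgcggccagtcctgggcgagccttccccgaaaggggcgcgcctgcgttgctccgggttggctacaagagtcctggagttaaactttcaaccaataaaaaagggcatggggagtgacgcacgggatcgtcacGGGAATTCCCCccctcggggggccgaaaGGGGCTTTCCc
Nfkbia: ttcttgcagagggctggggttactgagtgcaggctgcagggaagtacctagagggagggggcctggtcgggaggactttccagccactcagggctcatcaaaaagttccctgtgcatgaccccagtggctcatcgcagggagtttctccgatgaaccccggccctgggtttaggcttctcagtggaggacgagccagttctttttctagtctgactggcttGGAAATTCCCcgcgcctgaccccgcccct
Rel: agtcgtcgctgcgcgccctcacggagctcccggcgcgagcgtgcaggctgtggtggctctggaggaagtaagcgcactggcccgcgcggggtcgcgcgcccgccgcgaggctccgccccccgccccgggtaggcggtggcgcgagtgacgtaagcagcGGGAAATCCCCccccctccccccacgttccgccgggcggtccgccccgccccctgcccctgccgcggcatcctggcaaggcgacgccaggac
Nfkbie: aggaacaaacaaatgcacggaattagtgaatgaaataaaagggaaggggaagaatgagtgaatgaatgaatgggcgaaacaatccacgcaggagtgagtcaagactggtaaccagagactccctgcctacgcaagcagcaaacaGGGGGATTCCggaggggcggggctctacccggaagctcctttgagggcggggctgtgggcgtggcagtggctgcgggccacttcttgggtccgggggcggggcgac
Rela: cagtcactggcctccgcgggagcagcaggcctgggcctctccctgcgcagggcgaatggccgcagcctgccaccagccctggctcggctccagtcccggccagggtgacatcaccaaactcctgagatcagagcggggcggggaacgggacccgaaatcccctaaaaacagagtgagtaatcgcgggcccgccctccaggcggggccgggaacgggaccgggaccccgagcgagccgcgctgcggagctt
These stretches lie at chr19:46304487-46304736 (plus strand, Nfkb2), chr12:55492648-55492897 (minus, Nfkbia), chr11:23770970-23771219 (minus, Rel), chr17:45555450-45555699 (plus, Nfkbie) and chr19:5637291-5637540 (plus, Rela). In Nfkb2, the first of 3 windows held 2 separate matched stretches, at 39 to 29 and 11 to 2 bases before the start. The other 2 windows of Nfkb2 held matches as well. In the first stretch the decamer fitted in overlapping positions on both strands. In Nfkbia the match lay 29 to 20 bases before the start, in Nfkbie 106 to 97 and in Rel 92 to 82, where it again fitted on both strands. The match of Bcl3 was GGGACTTCCC on the minus strand of the window, 3 to 12 bases after the start. The windows of Rela and Nfkbib held no match. A match describes letters only; no binding was measured here.

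Levels can be compared between genes only per length, so CPM were divided by the merged exon length of each gene in a GRCm38 annotation (GENCODE M21), whereas the authors aligned to mm9. Nfkbia, which encodes the classical inhibitor IkB-alpha, stood highest in all 4 groups, at 1480 ± 1165 CPM per kb in Control vehicle and 2904 ± 287 in Control LPS (SD, n = 3). Nfkbiz, which encodes a nuclear IkB needed for a set of secondary response genes, came next at 263 ± 219 and 585 ± 89.5 CPM per kb. Bcl3, a nuclear IkB that binds homodimers of the Nfkb1 and Nfkb2 products, followed in each group, at 171 ± 86.5 CPM per kb in Control LPS. By this measure Rel, the gene of c-Rel, was the lowest but 1 in each group, at 18.8 ± 7.69 CPM per kb in Control LPS. Nfkb1 was the lowest, at 8.80 ± 3.19. Between Bcl3 and Rel lay Nfkbib, Nfkb2, Relb, Nfkbie and Rela, from 75 to 112 CPM per kb in Control LPS. The lengths used for Nfkb1 and Rel, 12061 and 7466 bases, merge all annotated exons of each gene. Transcripts shorter than that would put the level per kb too low, and the transcripts present were not tested. The order of Nfkb1 and Rel thus depends on these lengths. Before division, the mean CPM of Nfkb1 was above that of Rel in Runx1KO LPS (212.5 against 177). It was below that of Rel in the other groups. With LPS, the libraries of Nfkbia lay above those of Nfkbiz, and those of Nfkbiz above those of Bcl3, without overlap in either genotype. Neighbours from Bcl3 downward overlapped in every group except Rela and Rel in Control LPS, and with vehicle the top 3 overlapped as well.

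The first comparison asked how LPS moved these transcripts. In the 3 Control pairs of libraries with the same number, all 10 genes had a higher CPM with LPS. In Runx1KO cells the same held for 2 of 10, Nfkbia and Nfkbiz, because most members were lower with LPS in the pair numbered 1. Higher in all 3 pairs were 16.3% of all genes tested in Control and 15.6% in Runx1KO. None of the 10 passed edgeR's quasi-likelihood test with Benjamini-Hochberg adjustment at 0.05 in either genotype or averaged over both, and in each of these 3 contrasts the share of all genes called was 0%. In bulk RNA, fewer cells of a type and less RNA per cell cannot be told apart.

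Among the subunits, Nfkb2 and Relb had the largest estimates. Nfkb2 encodes the precursor whose processing frees the DNA-binding partner of RelB in the alternative pathway. Nfkb2 was at 106, 382.5 and 34.7 CPM in Control vehicle libraries 1, 2 and 3 and at 140.4, 591 and 722 CPM in Control LPS. In Runx1KO it was at 258.5, 448.5 and 41.3 CPM with vehicle and at 75.3, 725 and 1348 CPM with LPS. Library 3 was the lowest vehicle library and the highest LPS library of both genotypes, and the groups overlapped. Averaged over both genotypes, the log2 fold change of Nfkb2 was 1.5 (SE 0.77, edgeR adjusted p = 0.862).

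Relb, whose product acts mostly with the Nfkb2 product, followed the same order of libraries. It was at 61.9, 342 and 30.5 CPM in Control vehicle and at 85.2, 485 and 560 CPM in Control LPS. In Runx1KO it was at 149.9, 345 and 47.2 CPM with vehicle and at 36.7, 527 and 914 CPM with LPS. With LPS, library 1 stood below the other two in both genotypes, and in Runx1KO below every vehicle library of that genotype. The averaged log2 fold change of Relb was 1.41 (SE 0.80, edgeR adjusted p = 0.883).

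Rela, which encodes the main transactivating subunit of the classical dimer, varied least of the 10, with a span of 5.13-fold between its highest and lowest library. It was at 155, 220.5 and 104 CPM in Control vehicle and at 188.5, 249.7 and 253 CPM in Control LPS. In Runx1KO it was at 269.7, 275 and 134 CPM with vehicle and at 98.9, 332.5 and 508 CPM with LPS. The vehicle and LPS libraries overlapped in both genotypes. Its averaged log2 fold change was 0.50 (SE 0.36, edgeR adjusted p = 0.922), the smallest of the 10, and 0.22 with library size alone as scaling.

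Nfkb1 encodes the precursor of the partner of RelA in the classical dimer. In Control its mean went from 58.3 ± 29.6 CPM with vehicle to 106 ± 38.5 CPM with LPS, and in Runx1KO from 98.3 ± 40.4 to 212.5 ± 202 CPM (SD, n = 3). The large SD with LPS in Runx1KO came with 39.4 CPM in library 1, 163 in library 2 and 435 in library 3. The averaged log2 fold change of Nfkb1 was 0.99 (SE 0.48, edgeR adjusted p = 0.848). Rel ranged from 37.8 to 131.4 CPM in Control vehicle and from 82.1 to 197 CPM in Control LPS. In Runx1KO the range of Rel was 22.5 to 175 CPM with vehicle and 46.4 to 252 CPM with LPS, so that both genotypes overlapped between treatments (averaged log2 fold change 0.78, SE 0.53).

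**Figure D1:**
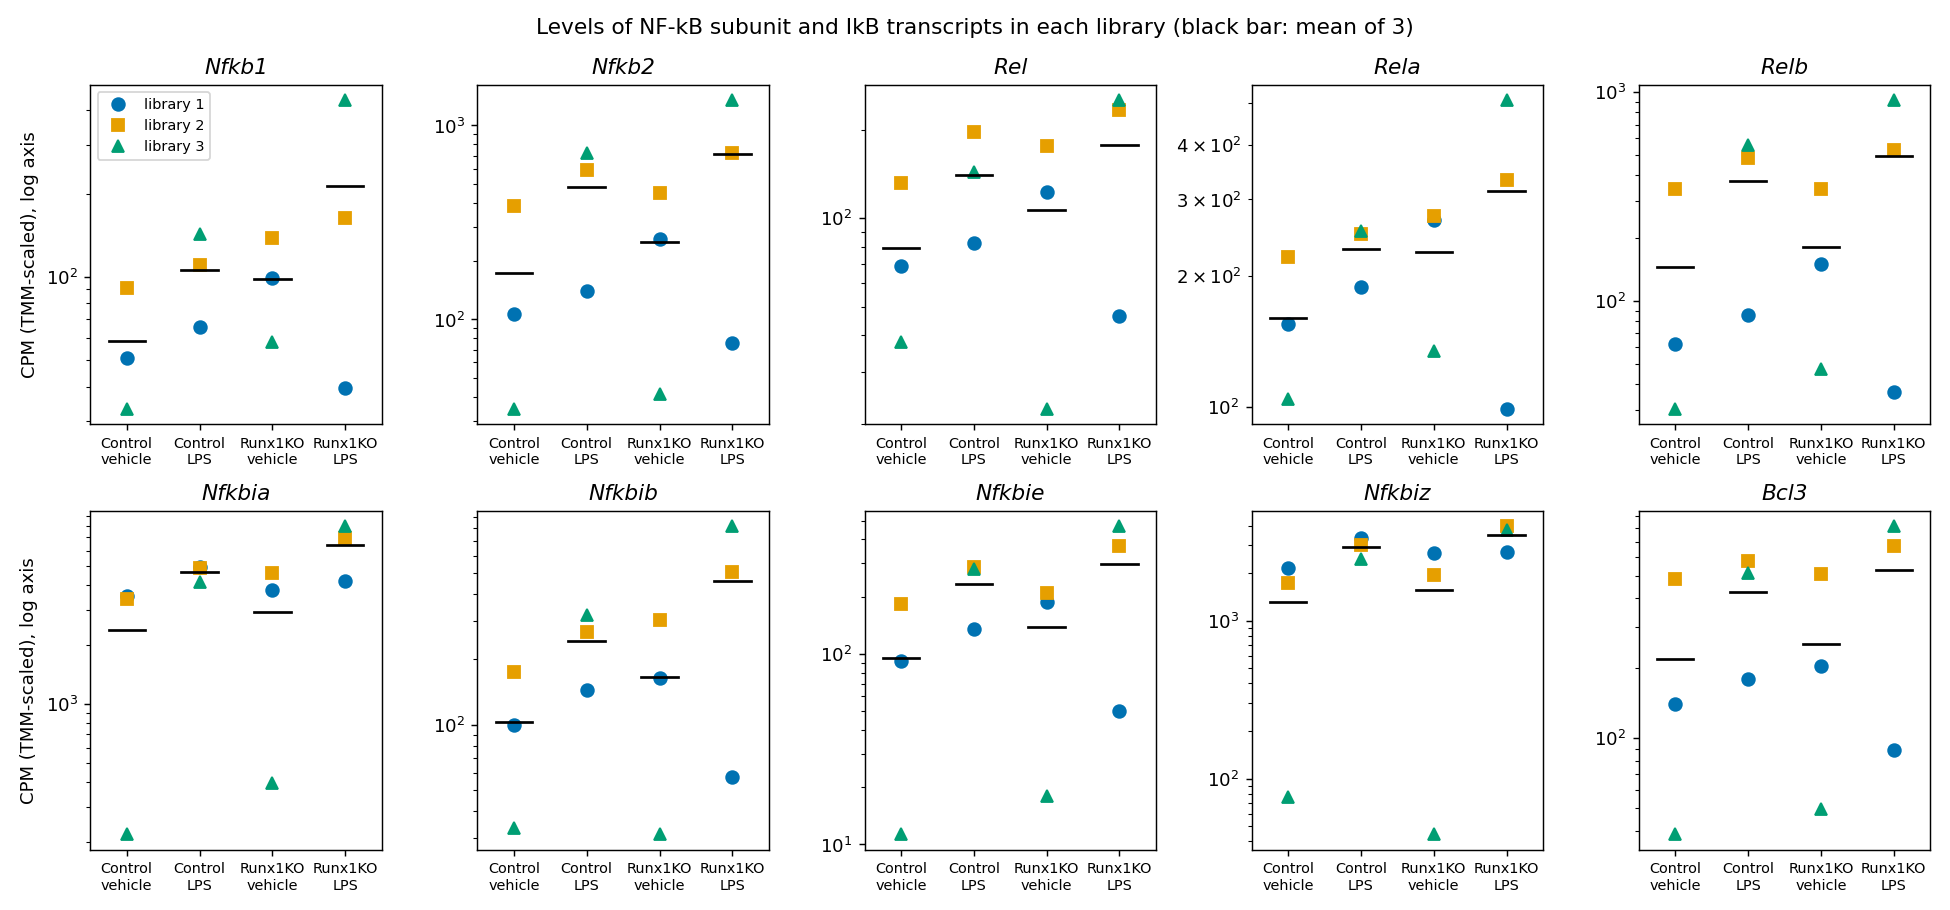
Level of each of the 10 genes in CPM (vertical log axes that differ between panels) in the 4 groups, with 1 symbol per library number and a black bar at the mean of 3. Vehicle library 3 is the lowest vehicle library of both genotypes for all 10 genes, and Nfkbiz in Runx1KO is the gene with the widest step, from 44.3 CPM in vehicle library 3 to 3746 CPM in LPS library 3.

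Among the IkB family genes, Nfkbia and Nfkbiz were the only ones whose treatments did not overlap in a genotype. Nfkbia was at 3517, 3411 and 217 CPM in Control vehicle libraries 1, 2 and 3 and at 4975, 4906 and 4143 CPM in Control LPS. In Runx1KO it was at 3796, 4607 and 397 CPM with vehicle and at 4191, 6956 and 7992 CPM with LPS. All 3 Control LPS libraries thus lay above all Control vehicle libraries, while in Runx1KO LPS library 1 lay below vehicle library 2. The log2 fold change of Nfkbia was 0.97 (SE 0.88, edgeR adjusted p = 1) in Control and 1.12 (SE 0.88, adjusted p = 0.883) in Runx1KO. By limma-voom the Nfkbia estimates were 1.76 and 1.69.

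Nfkbiz was at 2159, 1725 and 76.5 CPM in Control vehicle and at 3352, 3000 and 2461 CPM in Control LPS. In Runx1KO it was at 2689, 1945 and 44.3 CPM with vehicle and at 2735, 3969 and 3746 CPM with LPS. The treatments did not overlap in either genotype, although the margin in Runx1KO, between vehicle library 1 and LPS library 1, was narrow. Its span of 89.5-fold over the 12 libraries was the widest of the 10. The log2 fold change was 1.15 (SE 1.11) in Control and 1.16 (SE 1.11) in Runx1KO, with edgeR adjusted p = 1 and 0.896. By limma-voom the Nfkbiz estimates were larger, at 2.15 and 2.48, and did not pass the test either. Members whose LPS libraries all lay above all vehicle libraries were thus 2 of 10 in Control, against 2.84% of all genes tested, and 1 of 10 in Runx1KO, against 3.51%.

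Nfkbib and Nfkbie encode IkB-beta and IkB-epsilon, inhibitors that like IkB-alpha hold dimers in the cytoplasm. For Nfkbib, Control means were 103 ± 71 (vehicle) and 243 ± 90.1 CPM (LPS), and Runx1KO means were 166 ± 136 and 460 ± 383 CPM. Nfkbib had the lowest adjusted p of the 10 in the averaged contrast (log2 fold change 1.35, SE 0.64, edgeR adjusted p = 0.842). For Nfkbie the Control means were 95.7 ± 86 (vehicle) and 234 ± 85.5 CPM (LPS), and the Runx1KO means 139 ± 105 and 296 ± 219 CPM. For Bcl3 they were 220 ± 232 (vehicle) and 424 ± 214 CPM (LPS) in Control, and 254 ± 233 and 526 ± 385 CPM in Runx1KO. The treatments overlapped for all 3 of these genes in both genotypes. The counts of Nfkbib, Bcl3 and Nfkb2 may have gained or lost reads where their exons overlap those of neighbours. The sources used here do not say whether counting used the strand or how reads over shared bases were assigned. By the GRCm38 annotation, 14.5% of the exon bases of Nfkbib are shared with Ccer2 and 1.94% with Sirt2, 11.6% of those of Nfkb2 with AC114539.1 and 6.52% with Psd, and 6.51% of those of Bcl3 with Gm16175. The other 7 members share none.

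As a family, the 10 members had a median log2 fold change of 1.06 with LPS in Control (range 0.53 for Rela to 1.47 for Nfkb2) and of 1.12 in Runx1KO (0.47 to 1.52 for the same genes). The median over all 12917 genes was −0.02 and 0.028. Averaged over both genotypes the median was 0.99 for the 5 subunits and 1.16 for the 5 IkB genes. The 95% intervals of the averaged contrast ran from −0.55 to 3.18 over the 10 genes, and each of them included 0. At an unadjusted p under 0.05 there were 0 members and, of all genes, 78 in Control, 676 in Runx1KO and 749 in the averaged contrast. DESeq2 called 0, 1 and 2 genes of all genes in these contrasts and limma-voom 0 in each, with 0 members among them.

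The LPS difference varied widely with the library number. In the pairs numbered 1 and 2 of Control, and 2 of Runx1KO, LPS over vehicle lay between 1.13-fold and 2.04-fold for all 10 genes. In the pair numbered 3 it was 2.44-fold (Rela) to 32.2-fold (Nfkbiz) in Control and 3.78-fold (Rela) to 84.5-fold (Nfkbiz) in Runx1KO. With log2 CPM centred per gene over the 12 libraries, the members' mean was 0.93 in both Control LPS libraries 2 and 3. In Runx1KO LPS libraries 2 and 3 it was 1.34 and 1.87. The wide step of the pair numbered 3 thus came with a high LPS library in Runx1KO, but not in Control relative to library 2. In both genotypes it came with low levels in vehicle library 3, where that mean was −2.54 in Control and −2.31 in Runx1KO. Nfkbia, for example, was at 217 and 397 CPM in the vehicle libraries numbered 3 of Control and Runx1KO and at 3411 CPM or more in the vehicle libraries numbered 1 and 2. In the Runx1KO pair numbered 1, 8 of the 10 genes were lower with LPS, from 0.434-fold for Bcl3 to 0.245-fold for Relb, while Nfkbia was at 1.10-fold and Nfkbiz at 1.02-fold. The median log2 fold change of the 10 without the 4 libraries numbered 3 was 0.51 in Control and 0.12 in Runx1KO. Without Runx1KO LPS library 3 alone it was 0.61 in Runx1KO. It was 0.59 in Control without Control vehicle library 3, and 0.59 in Runx1KO without Runx1KO vehicle library 3.

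**Figure D2:**
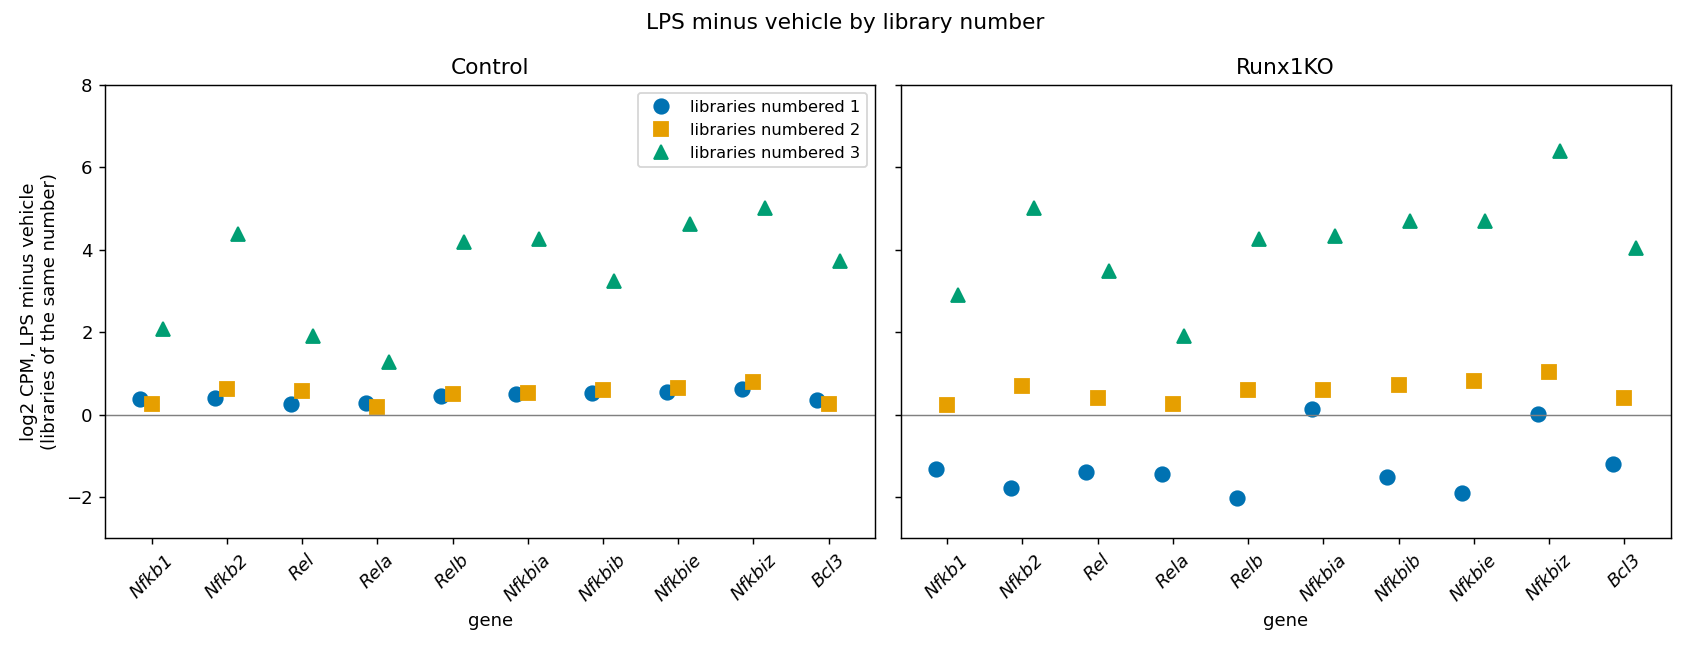
Difference of log2 CPM between the LPS and the vehicle library of the same number (vertical axis) for each gene (horizontal axis) in Control (left) and Runx1KO (right), with 1 symbol per library number and a grey line at 0. Libraries numbered 3 stand highest throughout, and 8 of 10 genes lie below 0 in the Runx1KO pair numbered 1.

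The members also differed from each other by library number. Over the 4 groups, library 1 held 0.603 to 1.03 times the CPM of library 2 for Nfkbia and 0.689 to 1.38 times for Nfkbiz, but only 0.104 to 0.576 times for Nfkb2 and 0.0697 to 0.435 times for Relb. Within a library, the ratio of Nfkbia to Nfkb2 counts was 14.7 to 55.7 in the 4 libraries numbered 1, 8.30 to 10.3 in those numbered 2 and 5.74 to 9.60 in those numbered 3. The ratio of Nfkbiz to Relb was 17.9 to 74.5, 5.05 to 7.53 and 0.94 to 4.40. Neither ratio overlapped between libraries numbered 1 and the others, whatever the genotype or treatment. Both were highest in Runx1KO LPS library 1. Ratios of counts within a library do not change with scaling, but they compare genes of different length and are read only between libraries.

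**Figure D3:**
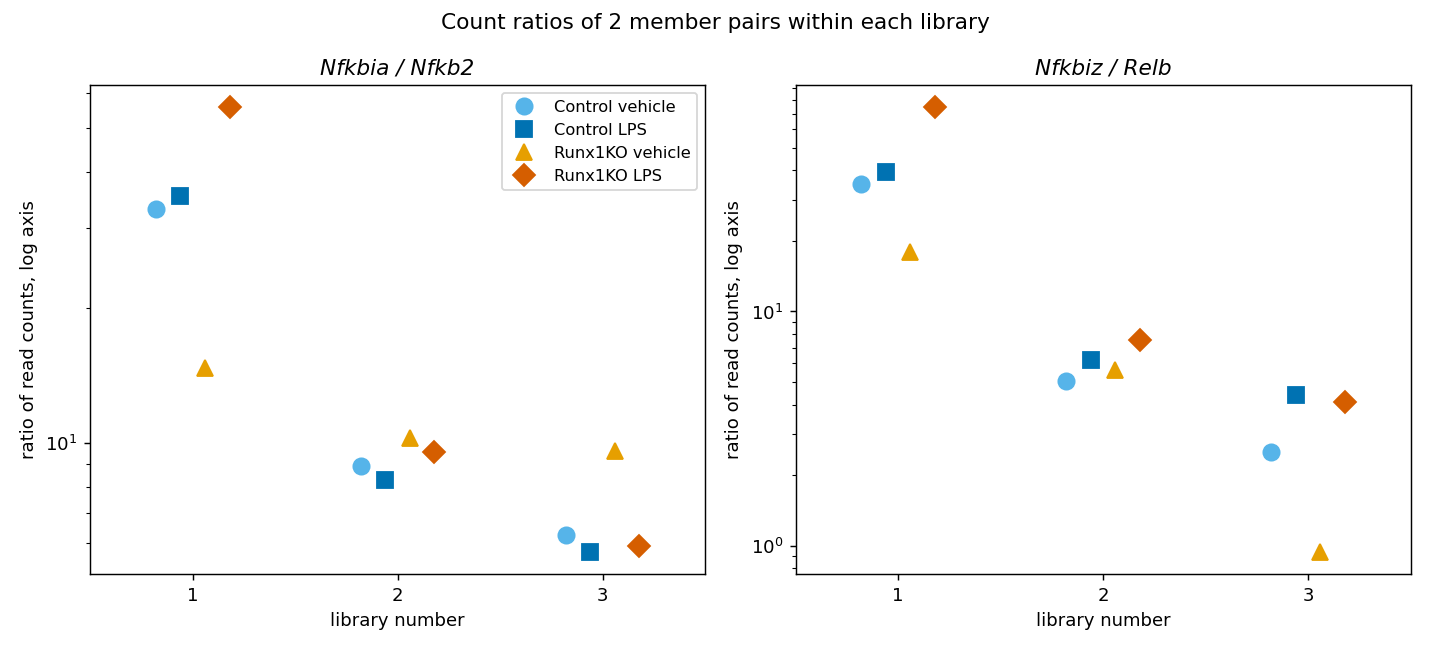
Ratio of read counts within each library (vertical log axes) for Nfkbia over Nfkb2 (left) and Nfkbiz over Relb (right), by library number, with 1 symbol and colour per group. The 4 libraries numbered 1 lie above all others in both panels, with the highest ratios, 55.7 and 74.5, in Runx1KO LPS.

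Pairs of members kept to each other to different degrees. Nfkb2 and Relb stayed within a count ratio of 0.876 to 2.05 in all 12 libraries. Nfkbiz over Nfkbia was 0.422 to 0.709 in libraries numbered 1 and 2, and reached its lowest value, 0.112, in Runx1KO vehicle library 3. Over the 12 libraries, the Pearson r of a member's log2 CPM with the mean of the other 9 was highest for Nfkbie (0.989) and lowest for Nfkbiz (0.782), Nfkb1 (0.853) and Nfkbia (0.86). These values describe libraries that share treatment and number.

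Markers of another cell type moved with these levels in part. The gate excluded F4/80+ cells, and the 9 monocyte and macrophage markers summed to 117 to 384 CPM in Control vehicle, 113.5 to 533 CPM in Control LPS, 214 to 567.5 CPM in Runx1KO vehicle and 163 to 2008 CPM in Runx1KO LPS. The highest sum belonged to Runx1KO LPS library 3, which also held the highest level of 9 of the 10 members. Of that sum Adgre1 made up 1220 CPM and Csf1r 741 CPM, whereas the other 7 markers of the list each stayed at or below 25.2 CPM in every library, and Mrc1 was at 0 in 3 libraries. In libraries numbered 1 the sum was 113.5 to 214 CPM, and in those numbered 2 it was 384 to 670 CPM. In those numbered 3 it was 117 CPM in Control vehicle, 533 in Control LPS, 423 in Runx1KO vehicle and 2008 in Runx1KO LPS. Runx1KO vehicle library 3 thus had a higher sum than every library numbered 1, although its members were among the lowest. The 12 neutrophil markers summed to 122846 to 158790 CPM in Runx1KO vehicle and 169176.5 to 172338 CPM in Runx1KO LPS, without overlap. In Control they summed to 166486 to 179732 CPM with vehicle and 166253 to 194934 CPM with LPS. The part of these cells or transcripts in the members' levels was not tested.

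The second comparison set Runx1KO against Control. All 10 genes had a positive estimate with vehicle (median log2 fold change 0.47) and with LPS (median 0.41). A positive estimate was found for 50.3% and 52.6% of all genes tested. The members' levels followed each other over the libraries (Pearson r 0.782 to 0.989), so the 10 signs are not separate results. None of the 10 passed the test in either treatment or averaged over both. Of all genes tested 0.952% were called with vehicle, 0.921% with LPS and 4.08% in the averaged contrast. At an unadjusted p under 0.05 there were 0 members and 1006, 1311 and 1982 of all genes. DESeq2 called 364, 381 and 1011 genes and limma-voom 123, 105 and 492, with 0 members among them.

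Nfkb1 had the largest averaged genotype estimate, at a log2 fold change of 0.88 (SE 0.48, edgeR adjusted p = 0.438). Without Runx1KO LPS library 3 it was 0.34, below the 0.45 of Nfkbib, and without Control vehicle library 2 it was 1.11, below Nfkb2 (1.19) and Relb (1.17). With vehicle Nfkb1 was 1.95-fold, 1.52-fold and 1.73-fold higher in Runx1KO in the pairs numbered 1, 2 and 3. With LPS the same ratio for Nfkb1 was 0.598, 1.48 and 3.05. Its direction thus held in the vehicle pairs and turned in 1 of the 3 LPS pairs. Nfkbib came next (0.80, SE 0.64, adjusted p = 0.637), then Nfkb2 (0.54, SE 0.76, adjusted p = 0.837), and Nfkbiz had the smallest estimate (0.24, SE 0.77, adjusted p = 0.946). The genotypes overlapped for every member: 0 of 10 had all Runx1KO libraries above all Control libraries, against 5.42% of all genes with vehicle and 6.51% with LPS.

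Marker lists differed between the genotypes. With vehicle, the neutrophil marker sums given above were lower in Runx1KO than in Control without overlap. Markers of other cells were at low levels. The 6 megakaryocyte and platelet markers summed to 1.52 to 6.67 CPM in Control and 27.2 to 43 CPM in Runx1KO libraries. The 6 T and NK cell markers summed to 35.7 to 53.8 CPM in Control and 5.21 to 9.60 CPM in Runx1KO. Of these Cd3d reached 47.5 CPM, whereas the other 5 stayed at or below 6.24 CPM in every library, so that the difference was mainly that of Cd3d. B lineage markers summed to 18.5 to 50.9 against 7.93 to 17.7 CPM, and basophil and mast cell markers to 3.54 to 25.7 against 1.20 to 2.92 CPM. The sums of the eosinophil, erythroid and dendritic cell lists were at most 35.3, 25.1 and 32.4 CPM. The part of these transcripts in the genotype values of the members was not tested.

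Paired by number, 7 of 10 members were higher in Runx1KO in all 3 vehicle pairs, against 15.9% of all genes, and Rel, Nfkbib and Nfkbiz were the exceptions. With LPS 0 of 10 were higher in all 3 pairs, against 18.1% of all genes. All 10 members were lower in Runx1KO in the LPS pair numbered 1, from 0.372-fold for Nfkbie to 0.842-fold for Nfkbia. In the pairs numbered 2 and 3 all 10 were higher, by 1.09-fold to 1.89-fold and by 1.52-fold to 3.05-fold. With LPS, numbers 2 and 3 therefore gave one direction and number 1 the other, and the genotype estimates with LPS rest on both. With vehicle, all 10 were higher in Runx1KO in the pairs numbered 1 and 2, and 7 in the pair numbered 3. Without Runx1KO vehicle library 2 the median log2 fold change with vehicle was −0.10, without Control vehicle library 3 it was 0.02, without Control vehicle library 2 it was 1.27 and without Runx1KO vehicle library 3 it was 0.86. The median with LPS was −0.09 without Runx1KO LPS library 3 and 0.85 without Runx1KO LPS library 1. Without Control LPS library 1 it was 0.21, by limma-voom 0.14 and with library size alone 0.16.

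The third comparison asked whether the response to LPS differed between genotypes. The difference of the 2 log2 fold changes, Runx1KO minus Control, had a median of 0.06 over the members, from −0.19 for Nfkbie to 0.25 for Nfkb1, beside a median of 0.048 over all genes. None of the 10 passed the test (edgeR adjusted p = 1 for each), and 0% of all genes were called by edgeR, with 0 by DESeq2 and 0 by limma-voom and 77 at an unadjusted p under 0.05. The intervals were wide: for Nfkbia the 95% interval of the difference was −2.54 to 2.83, for Rela, the narrowest, −1.61 to 1.49, and for Relb −3.37 to 3.51. An interaction of several-fold in either direction was therefore not detectable with these libraries.

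**Figure D4:**
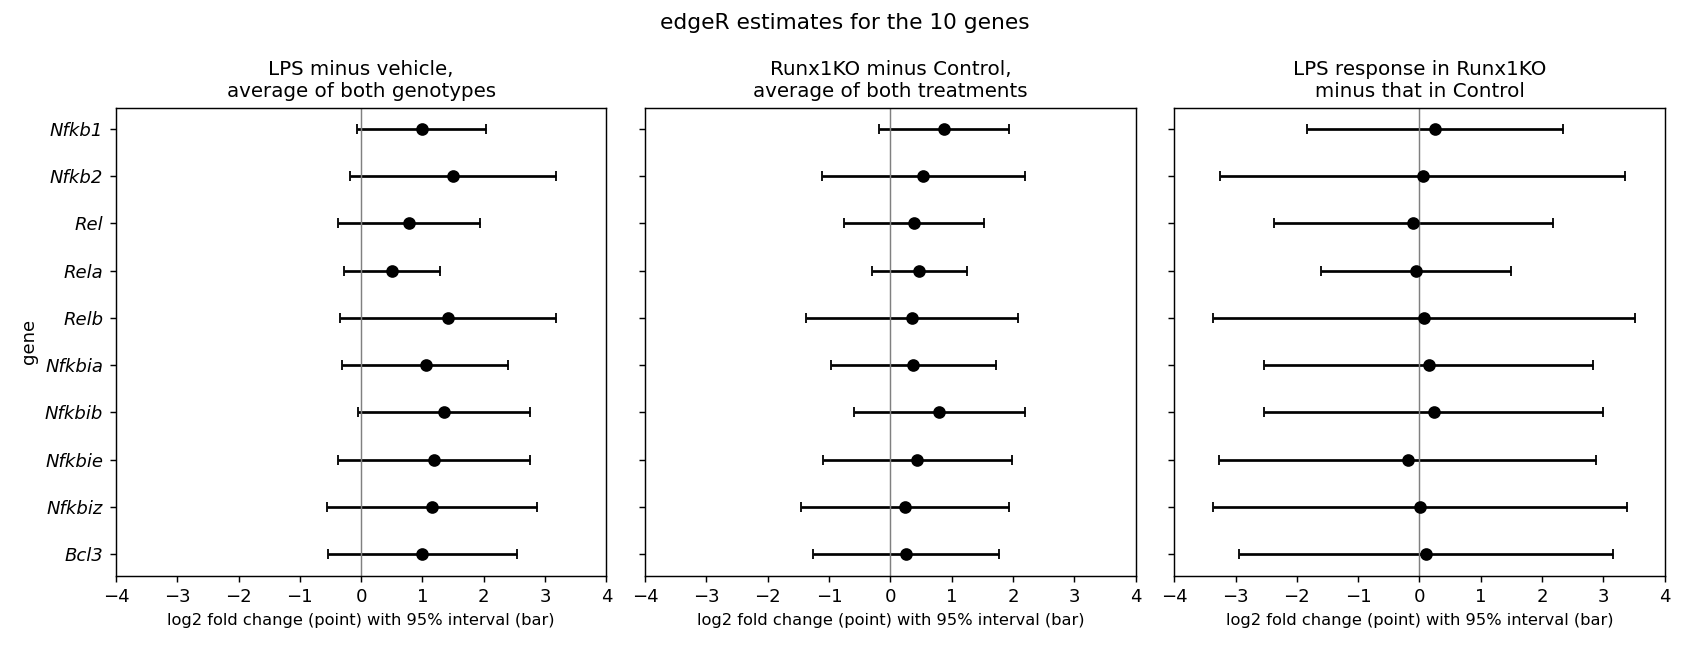
Log2 fold changes from edgeR (points) with 95% intervals (bars) for the 10 genes: LPS against vehicle averaged over genotypes (left), Runx1KO against Control averaged over treatments (middle) and the difference of the LPS responses (right). All points of the first 2 panels lie above 0, and every interval in the 3 panels crosses 0.

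Other genes of the pathway were taken as lists. Nfkbid, which encodes a further nuclear IkB, had an averaged log2 fold change with LPS of 0.78 (SE 0.40, edgeR adjusted p = 0.861). Of 15 IkB kinases and their activators 0 were called and 12 had a positive estimate, against 49.9% of all genes tested, with a median of 0.13. The core kinase genes Chuk, Ikbkb and Ikbkg stood at −0.06, 0.12 and 0.04. Ikbke, a kinase related to Tbk1, had the largest estimate of the list with 2.65 (SE 1.04, adjusted p = 0.842). Ikbke was at 19.1 and 1336 CPM in Runx1KO vehicle and LPS library 3, and in the other LPS libraries of both genotypes it was at 13.3 to 241 CPM. Map3k8, a kinase that the Nfkb1 precursor protein binds and restrains, had 1.64 (SE 1.03), and Tank, an adaptor of Tbk1, had 1.20 (SE 0.52). Of 6 measured genes for IkB ubiquitination 0 were called, 4 had a positive estimate, against 49.9% of all genes tested, and the median was 0.14.

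The 20 transcripts known to be induced through NF-kB all had a positive averaged estimate with LPS, against 49.9% of all genes tested. Their median was 1.62, against 1.10 for the 10 members, and 0 were called. The chemokine gene Ccl4 had 2.89 (SE 0.90), its relative Ccl3 had 2.70 (SE 0.97), Cd40, a costimulatory receptor, had 2.15 (SE 0.78), and the neutrophil attractant Cxcl1 had 2.05 (SE 1.06), with edgeR adjusted p from 0.842 to 0.862. For Ccl3 the libraries of Runx1KO LPS were at 222, 3238 and 11658 CPM, the same order by number as for Nfkb2. Tnf was at 1281, 594 and 28.2 CPM in Control vehicle libraries 1, 2 and 3 and at 1898, 1264 and 1927 CPM in Control LPS. Ccl4, in contrast, was at 68.9, 65.1 and 110.7 CPM in Control vehicle. In the Runx1KO pair numbered 1 Tnf went from 1419 CPM with vehicle to 488.5 CPM with LPS, whereas Ptgs2 went from 373 to 635 CPM. In the difference of the LPS responses 17 of the 20 were positive (median 0.60), against 55.1% of all genes tested, and 0 were called (adjusted p = 1 for each). In the averaged genotype contrast 19 of the 20 were positive (median 0.43), against 52% of all genes tested, and 0 were called. The medians of the 20 were not recomputed with libraries left out.

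Over the 12 libraries, the genes whose log2 CPM followed the mean of the 10 members most closely, by Pearson r among 7059 genes ranked, were Pde4b (0.989), Sod2 (0.989), Zc3h12c (0.988), Prkd3 (0.988), Casp4 (0.984), Zc3h12a (0.981), Hivep1 (0.976) and Birc3 (0.976). Pde4b encodes a cyclic AMP phosphodiesterase, Sod2 the mitochondrial superoxide dismutase, and Zc3h12a an RNase that degrades inflammatory mRNAs. Pde4b ranged from 91.8 to 754 CPM in Control vehicle and from 534 to 1034 CPM in Control LPS. The same gene ranged from 169 to 960 CPM in Runx1KO vehicle and from 318 to 1607 CPM in Runx1KO LPS. Birc3, Sod2 and Zc3h12a are also among the 20 NF-kB-induced transcripts above.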

How the data were processed

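RNA-seq read counts of 12 mouse neutrophil libraries were used. The authors deposited whole-number counts per gene, not normalized. The submitters' processing notes name STAR 2.6.0a, featureCounts and the build mm9. The sources used here do not give the strand setting, annotation or read filters, and mm9 is not the GRCm38 build of the annotation, promoter and length tables. ERCC spike-in RNA was added, per the labels' protocols, and was not used here. Columns were matched to samples by title; 0 columns of other samples were left out. Symbols were matched for 32620 of 37310 genes.

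Genes were kept with edgeR 4.0.16 filterByExpr (R 4.3.3), scaled by TMM and tested with its quasi-likelihood test in 1 fit of the 4 groups, which leaves 8 residual degrees of freedom. The contrasts were LPS against vehicle (each genotype and averaged), Runx1KO against Control (each treatment and averaged) and the difference of the LPS responses. P values were adjusted by Benjamini-Hochberg over 12917 genes, with a threshold of 0.05. Log2 CPM used a prior count of 2. Reads carry no molecular identifiers. The scripts were tested on simulated data. The alternatives were DESeq2 1.42.0, limma-voom (limma 3.58.1), RLE factors, library size alone, no filter, the replicate number as a block and leaving out libraries. No 2 libraries of a group agreed within sampling noise (lowest chi-square per degree of freedom 68.3). With 3 against 3 libraries an exact two-sided permutation p cannot go below 0.1, so tests borrowed spread across genes. All 10 members are named in every contrast. Of each pathway list, at most the 4 genes with the largest averaged LPS estimate are named, and the core kinase genes Chuk, Ikbkb and Ikbkg were named outside this rule, after their values were seen. The 8 genes most like the members had a mean log2 CPM of at least 2, with predicted genes left out. The members and lists were chosen with earlier results of these data known.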

Additional observations from a re-analysis of the deposited data

How the results depend on the processing

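With DESeq2, limma-voom, RLE factors, library size alone, no filter, the replicate block and the leave-outs of a library number, 0 of 10 members were called in all 7 contrasts. Single libraries were left out only for the 5 contrasts that use them, again with 0 called. The lowest adjusted p of a member over the LPS contrasts and the averaged genotype contrast was 0.102, for Nfkb1 in the latter. With library size as the sole scaling, the median log2 fold change of all genes became −0.14, −0.281 and −0.212 in the Control, Runx1KO and averaged LPS contrasts and −0.149 in their difference. The averaged LPS median of the members lay between 0.89 and 1.36 under the alternatives that leave out no library.

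By limma-voom the averaged LPS estimate was 2.31 for Nfkbiz (1.16 by edgeR) and 1.72 for Nfkbia (1.05), beyond their leave-out ranges of 0.61 to 1.77 and 0.45 to 1.44. With libraries left out, the median of the members ranged from 0.51 to 1.63 for LPS in Control, 0.12 to 1.70 in Runx1KO and 0.34 to 1.56 averaged. For Runx1KO against Control it ranged from −0.10 to 1.27 with vehicle, −0.09 to 0.85 with LPS and 0.16 to 0.89 averaged, and for the difference of responses from −0.55 to 0.60. Some genes changed sign. With LPS in Runx1KO, Nfkb1 ranged from −0.25 to 1.60, Rel from −0.11 to 1.28 and Rela from −0.36 to 1.00, where Rela was −0.07 without Runx1KO LPS library 3, and averaged over genotypes Rela ranged from −0.06 to 0.83. In the averaged genotype contrast Nfkb1 ranged from 0.34 to 1.12, Nfkbib from 0.42 to 1.11, Nfkb2 from 0.12 to 1.19, Nfkbiz ranged from −0.08 to 0.53 (−0.04 without Control vehicle library 3), Relb from −0.09 to 1.17 (−0.05 without Runx1KO LPS library 3) and Bcl3 from −0.24 to 0.91. The cause was not tested.

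Same-numbered libraries deviated together, though not all of them: 16 of 18 pairs had a correlation above 0.1 (lowest −0.0535). For 9 of 12 libraries the best correlation in every other group was with their own number. The Y-linked reads of the libraries numbered 2 also followed the number. The numbers were not taken as pairs in the main tests and entered only as an alternative. With the replicate number as a block, the median of the members was 1.34 for LPS in Control, 1.17 in Runx1KO and 1.27 averaged, Nfkbiz was 1.86, 2.07 and 1.97 and Nfkbia 1.43, 1.72 and 1.58, and the genotype contrasts called 315 genes with vehicle, 302 with LPS and 1034 averaged, against 123, 119 and 527 without it. Without the libraries numbered 1, 2 or 3 those counts were 2, 1 and 6 with vehicle, 3, 4 and 25 with LPS and 189, 120 and 191 averaged; DESeq2 called 364, 381 and 1011. With 3 libraries a group the spread between libraries, not the read depth, sets the width of the intervals.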
